A study of Mus musculus with 23 samples.

Results

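Respiratory chain and ATP synthase subunits, the proteins that carry out oxidative phosphorylation in mitochondria, were examined gene by gene in mouse lung epithelial cells before, during and after culture at an air-liquid interface. Members were chosen by name, with earlier results of these data known. They were the genes whose symbol starts with Nduf (without the Ndufaf assembly factors and Ndufa4l2), Uqcr, Atp5 or Cox4 to Cox8, together with Sdha, Sdhb, Sdhc, Sdhd and Cyc1, and the subunits encoded by mitochondrial DNA. This gave 105 of the 41073 genes in the count tables, of which 92 are nuclear and 13 are encoded in the mitochondrion, and 2 rows with pseudogene names were left out. The nuclear members comprised 42 genes of complex I, 4 of complex II, 9 of complex III, 19 of complex IV and 18 of complex V. The mitochondrially encoded members comprised 7 genes of complex I, 1 of complex III, 3 of complex IV and 2 of complex V.

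The 23 libraries of bulk RNA came from 3 experiments, labelled A, B and C, and all were from wild type mice of the strain C57BL/6. Cells were selected for the epithelial surface protein EpCAM and grown in transwells. Fresh cells, untreated and taken on the day of isolation, gave 3 libraries, 1 in each experiment. Untreated cells on the day of airlift, when the medium above the cell layer is removed and the layer meets air, gave 6 libraries. Cultures exposed to NTHi (non-typeable Haemophilus influenzae, a bacterium of the airways) and taken at day 4 of culture gave 7 libraries, and untreated control cultures of the same day gave 7. Animal age and sex, the number of animals pooled, the form and dose of NTHi and the culture time before airlift are not given in the labels. The labels do not tell whether replicates came from different animals or culture wells. The p-values therefore rest on the spread among these libraries, some or all of which may be technical.

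The electron transport chain passes electrons from NADH through complex I, and from succinate through complex II, to ubiquinone, then through complex III to cytochrome c and through complex IV to oxygen. Complexes I, III and IV pump protons across the inner membrane as they do so, and complex V, the ATP synthase, uses the proton gradient to make ATP. Complex II is built from nuclear genes alone, whereas the others combine nuclear subunits with a core encoded in mitochondrial DNA, so that transcripts of separate genomes meet in the same enzymes. In the lung, alveolar type 2 cells, which make surfactant, and multiciliated cells are known to be rich in mitochondria.

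Each library held between 32323375 and 39081663 counts. The labels call the cells airway epithelial cells, but transcripts of alveolar type 2 cells were also present. Their 5 markers summed to between 67955 and 90928 CPM (a library's counts relative to its TMM-scaled total) in fresh cells, 970.4 and 1019 CPM at airlift, 1014 and 1229 CPM with NTHi and 2888 and 3592 CPM in day 4 control cultures. The 4 markers of club cells, a secretory cell of the airways, summed to between 167827 and 183985 CPM in fresh cells, 19014 and 26636 CPM at airlift, 2232 and 2804 CPM with NTHi and 3851 and 5584 CPM in control cultures, and 4 epithelial markers summed to between 3676 and 6687 CPM in all libraries. Scaling factors were 0.741 to 0.770 in fresh cells and 0.980 to 1.10 elsewhere, and scaling by library totals alone put the median log2 change of all genes at 0.49 in both comparisons with fresh cells. In experiment C, NTHi replicate 3 and control replicate 1 stood apart from their own group, with an SD of log2 differences over 11846 genes of 0.343 and 0.302, against 0.115 to 0.273 in the other libraries. RNA was bulk, so fewer cells of a type and less RNA per cell cannot be told apart in any result given here.

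Many nuclear subunit genes carry binding motifs for the transcription factors NRF1, GABP (of the ETS family) and YY1 near their start, and these motifs were searched on both strands in RefSeq promoter windows of 300 bases (250 before the annotated start and 50 after it, build GRCm38.p6). None of the letters searched for one motif contain those of another. Windows were matched for 57 of the 92 nuclear members. The NRF1 core GCATGCGC was in the windows of 7 of these genes, or 12.28%, against 3.05% of all 27025 genes with a window. The ETS core CCGGAAG was in 11, or 19.3%, against 9.93%, and the YY1 core AAGATGGCG was in 5, or 8.77%, against 1.64%. The median GC content was 57.33% for the members and 52.67% for all promoters, and its part in these shares was not tested. The shares of all genes were not limited to genes expressed in these libraries, and the part of this was not tested either. All 5 members with the YY1 core are complex I subunits. They are shown here because all 5 were among the 32 matched members higher at airlift than in fresh cells. The YY1 core was in 0 of the 8 matched members that were lower and 0 of the 14 that were not called. The NRF1 core was in 4 of the 32 higher, 1 of the 8 lower and 2 of the 14 not called members. For the ETS core these counts were 6, 1 and 4. The YY1 core was thus picked after the calls were seen, and a link between motifs and change was not tested. The lines give 25 bases of the genes' own strand with the YY1 core in capitals.
Ndufc1: cctgcggaacAAGATGGCGccgtcc
Ndufa9: attgtgggagAAGATGGCGgccgcc
Ndufs7: ggccgaggccAAGATGGCGgcgctg
Ndufs6: ggtcaccggcAAGATGGCGgcggtg
Ndufs4: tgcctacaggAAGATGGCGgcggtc
The windows lie at chr3:51408919-51408943 (minus strand), chr6:126849101-126849125 (minus), chr10:80249463-80249487 (plus), chr13:73328435-73328459 (minus) and chr13:114388045-114388069 (minus), in the order of the lines. In all 5 the ATG inside the core is the annotated start codon, and the core begins between positions 23 and 36 counted from the start of transcription, so the motif and the first codons of the protein occupy the same letters. A match is a description of the letters and not a proven binding site.

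The 250 bases before the start are also given for 4 members that between them rose, were not called or fell at airlift. Sdhb, of complex II, was higher at airlift than in fresh cells. Cox6a1, of complex IV, was called in none of the comparisons in the main fit, and Cox7a2l and Cox6b2, also of complex IV, were lower at airlift. Capitals mark the NRF1 core in Sdhb and, in Cox6a1, overlapping NRF1 cores on both strands followed by an ETS core on the minus strand. The window of Sdhb also holds an ETS core at position 7, after the start and so outside the bases shown.
Sdhb: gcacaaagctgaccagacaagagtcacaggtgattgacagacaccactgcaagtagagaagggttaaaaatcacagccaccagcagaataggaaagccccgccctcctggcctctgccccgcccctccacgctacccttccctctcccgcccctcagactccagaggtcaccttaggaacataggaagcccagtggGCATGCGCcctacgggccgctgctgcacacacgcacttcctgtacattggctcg
Cox6a1: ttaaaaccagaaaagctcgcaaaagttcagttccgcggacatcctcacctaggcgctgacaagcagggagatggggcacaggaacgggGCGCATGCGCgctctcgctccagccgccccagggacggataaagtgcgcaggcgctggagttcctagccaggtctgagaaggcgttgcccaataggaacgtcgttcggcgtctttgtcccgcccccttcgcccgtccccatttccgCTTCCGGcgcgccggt
Cox7a2l: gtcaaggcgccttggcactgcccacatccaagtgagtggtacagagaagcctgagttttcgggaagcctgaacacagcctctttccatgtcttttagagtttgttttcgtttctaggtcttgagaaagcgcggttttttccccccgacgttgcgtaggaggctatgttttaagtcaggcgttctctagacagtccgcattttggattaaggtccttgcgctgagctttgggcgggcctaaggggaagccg
Cox6b2: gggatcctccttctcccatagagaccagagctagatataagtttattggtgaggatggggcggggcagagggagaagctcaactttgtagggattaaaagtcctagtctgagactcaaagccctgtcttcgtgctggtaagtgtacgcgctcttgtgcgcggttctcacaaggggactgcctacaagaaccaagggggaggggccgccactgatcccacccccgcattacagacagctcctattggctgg
These lie at chr4:140961021-140961270 (plus strand), chr5:115348959-115349208 (minus), chr17:83514334-83514583 (minus) and chr7:4753095-4753344 (minus), in the order of the lines. None of the searched letters occurred in the windows of Cox7a2l and Cox6b2, which says only that these letters are not there. Other members lower at airlift did hold such letters. The window of Ndufa6 had an NRF1 core and that of Uqcrh an ETS core, so Cox7a2l and Cox6b2 do not stand for all members that fell.

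Between isolation and airlift, transcripts of the nuclear subunits and those encoded in mitochondrial DNA moved apart. Summed over the 92 nuclear genes, the level was 7769 ± 229.8 CPM at airlift (SD, n = 6) and 7100.0 ± 72.2 CPM in fresh cells (SD, n = 3). Summed over the 13 mitochondrially encoded genes, it was 20319 ± 1418 CPM at airlift and 39612 ± 2256 CPM in fresh cells, and the lowest fresh library, at 37219 CPM, lay above the highest airlift library, at 21974 CPM. The ratio of mitochondrially encoded to nuclear counts, which does not depend on scaling and is read here only between libraries, was 5.20, 5.94 and 5.60 in the fresh cells of experiments A, B and C, and lay between 2.36 and 2.82 at airlift, between 2.38 and 3.35 with NTHi and between 2.35 and 3.07 in day 4 control cultures. The fresh libraries thus stood above every cultured library, while the 3 cultured groups overlapped. As unscaled shares of all counts, the mitochondrially encoded genes held 2.17 ± 0.15% at airlift and 2.997 ± 0.21% in fresh cells, and the nuclear genes 0.831 ± 0.018% at airlift and 0.537 ± 0.011% in fresh cells.

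**Figure D1:**
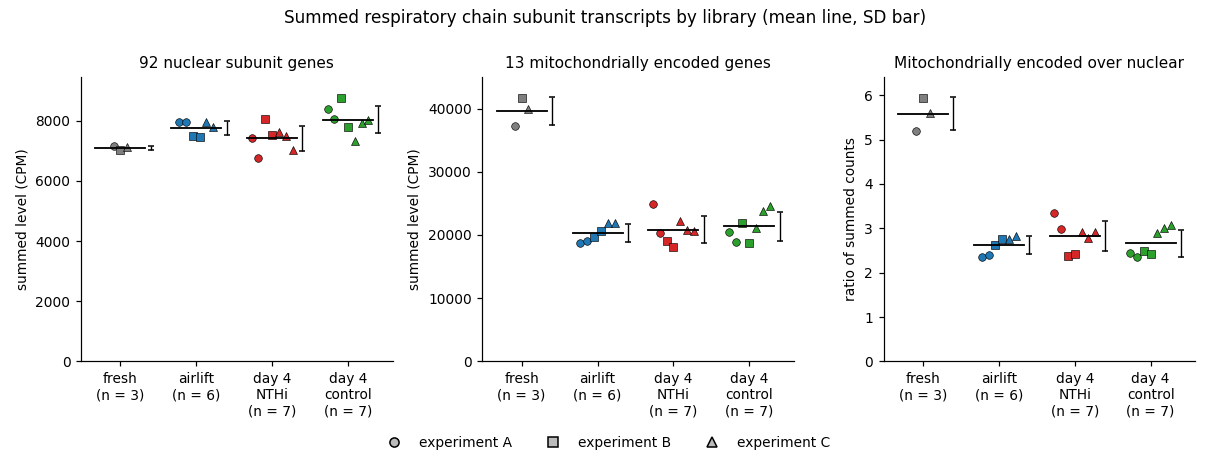
Summed level of the 92 nuclear and the 13 mitochondrially encoded subunit genes in CPM, and the ratio of their counts, in each of the 23 libraries (points, shaped by experiment), with the mean as a line and the SD as a bar beside it. The ratio is at least 5.20 in the 3 fresh libraries and at most 3.35 in all cultured ones.

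Of the 105 members, 100 passed the filter on low counts in the fit of fresh, airlift and day 4 control libraries, and 99 in the fit of the day 4 libraries. At airlift, 50 of 100 tested members were higher than in fresh cells and 23 were lower, where 37.9% of all 18302 tested genes were higher and 36.7% lower (edgeR quasi-likelihood test, Benjamini-Hochberg adjusted p below 0.05). The split followed the genome: 50 nuclear members were higher and 12 lower, with a median log2 change of 0.28 over 87, and 0 mitochondrially encoded members were higher and 11 lower, with a median of -0.82 over 13, against a median of 0.00 over all genes. With libraries scaled by totals alone, 80 members were higher and 13 lower, the nuclear median was 0.77 and the mitochondrial median -0.34. Such scaling moves all genes by about the same amount, so the distance between the genomes is not tested by it. Groups did not overlap for 46 of the 50 nuclear members that rose, for 11 of the 12 that fell and for 9 of the 11 mitochondrially encoded ones. These shares are near those of all genes called in this comparison. Of them, 88.0% of the higher and 88.3% of the lower ones did not overlap. The nuclear median was 0.24, 0.20 and 0.23 within experiments A, B and C, and the mitochondrial median -0.89, -0.82 and -0.78.

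Over the days at the interface the members moved less. In day 4 control cultures, 23 of 100 members were higher than at airlift and 6 lower, where 26.9% of all genes were higher and 27.7% lower. The share that was higher is close to that of all genes, and the nuclear median of 0.05 is close to the median of all genes of -0.02. Against fresh cells, day 4 control cultures had 58 members higher and 18 lower, where 38.8% of all genes were higher and 37.7% lower, and with scaling by totals alone these counts were 80 and 10. This comparison shares the fresh libraries with the one at airlift and the control libraries with the one before it, so the 3 sets of values are not independent. The nuclear median was 0.34 and the mitochondrial median -0.77, with 58 nuclear members higher and 6 lower, and 0 mitochondrially encoded members higher and 12 lower.

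With NTHi, 0 of 99 members were higher than in control cultures and 30 were lower, where 20.1% of all 16337 tested genes were higher and 20.4% lower. At an unadjusted p under 0.05 the counts were 0 higher and 44 lower, and DESeq2 called 0 higher and 35 lower. Differences were small: the median over 86 nuclear members was -0.13, with 81 of them below 0, and the median over the 13 mitochondrially encoded members was -0.03, against 0.00 over all genes. Of the 30 members, 29 were nuclear and 1, ND3, mitochondrially encoded, and they came from every complex, with 14 of 41 tested nuclear genes in complex I, 2 of 4 in complex II, 3 of 9 in complex III, 5 of 14 in complex IV and 5 of 18 in complex V. Only Sdha had all 7 NTHi libraries below all 7 control libraries. It is 1 of the 30 members called, whereas 36.8% of all genes called lower did not overlap. With libraries scaled by totals alone 64 members were lower. All genes then divided into 2282 higher and 4416 lower. Without experiment A the count fell to 15, and without the 2 libraries of experiment C that stood apart, a choice made after seeing the data, it was 39.

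**Figure D2:**
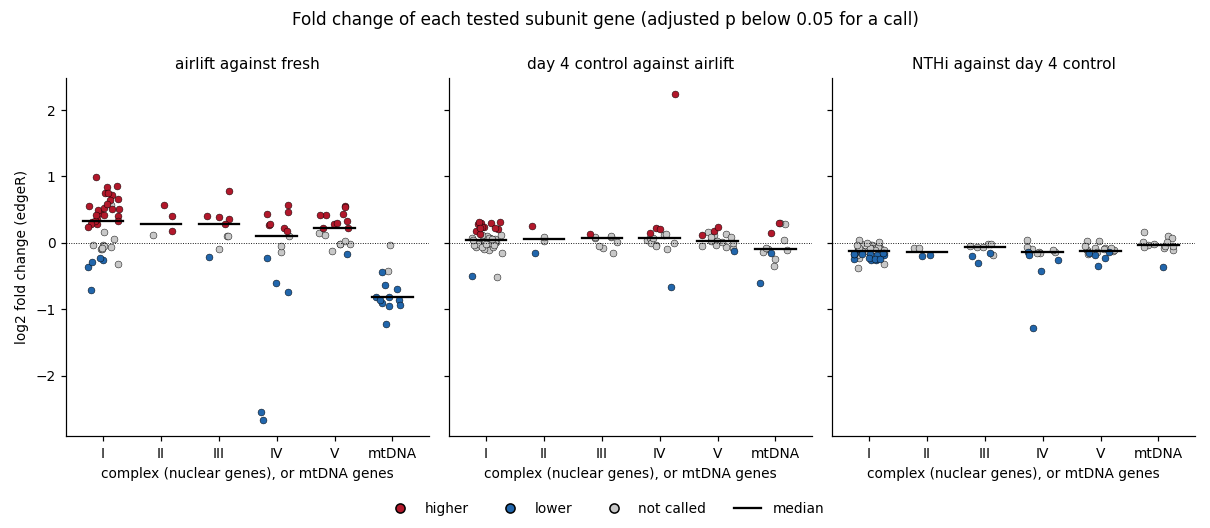
Log2 change of each tested member in 3 comparisons, with nuclear genes by complex and mitochondrially encoded genes (mtDNA) in the last column; red points were called higher, blue lower and grey not called, and the line is the median. The mtDNA column lies at a median of -0.82 for airlift against fresh. Nuclear genes there spread on both sides of 0, except that all 4 of complex II lie above it. All calls for NTHi are blue.

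The mitochondrially encoded genes fell by unlike amounts at airlift. COX1, the catalytic subunit of complex IV and the member with the most counts, had 5504, 6000.0 and 6508 CPM at airlift (for this group and those of day 4, the lowest, median and highest library), against 13527, 14689 and 14179.6 CPM in the fresh cells of experiments A, B and C. The groups were far apart, and the log2 difference was -1.22 ± 0.07 (adjusted p = 1.38e-11). Among the complex I genes encoded in the mitochondrion, which form its proton-pumping membrane arm, the differences were -0.82 ± 0.08 for ND1, -0.64 ± 0.07 for ND2, -0.86 ± 0.07 for ND4, -0.69 ± 0.17 for ND4L, -0.95 ± 0.08 for ND5 and -0.93 ± 0.11 for ND6, all called, although ND4L was not with scaling by totals alone (-0.20). CYTB, the cytochrome b of complex III and its one mitochondrially encoded subunit, differed by -0.82 ± 0.07. COX2 and COX3, the other core subunits of complex IV, differed by -0.86 ± 0.15 and -0.90 ± 0.16. ATP6, a proton channel subunit of complex V, differed by -0.44 ± 0.18 (adjusted p = 0.0308), a value turned to 0.04 by scaling to library totals alone. Its call was also lost without fresh cells of experiment B (-0.49) or C (-0.33), or without airlift replicate 1 of A (-0.39), replicate 1 of B (-0.36) or either replicate of C (-0.42 and -0.38). ATP8, whose reading frame overlaps that of ATP6, had 4.33, 4.91 and 5.73 CPM at airlift and 6.46, 6.74 and 6.83 CPM in fresh cells, at -0.42 ± 0.19 (adjusted p = 0.0541), and ND3 had 5.17, 6.40 and 12.9 CPM at airlift and 6.93, 8.11 and 7.31 CPM in fresh cells, at -0.03 ± 0.24 (adjusted p = 0.916), and neither was called. ATP8 was called without airlift replicate 2 of A (-0.48) or control replicate 1 of B or 2 or 3 of C (-0.42 each). The highest airlift library of ND3, replicate 2 of experiment B, lay alone above the fresh range.

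From airlift to day 4 the mitochondrially encoded genes no longer moved together. COX1 had 6568, 7584 and 8765 CPM in day 4 control cultures and 5504, 6000.0 and 6508 CPM at airlift, with every control library above every airlift library and a log2 difference of 0.31 ± 0.06 (adjusted p = 0.000156). ND2 went the other way, with 1627, 1896 and 2376 CPM in control cultures and 2492, 2721 and 3094 CPM at airlift, again without overlap, and a difference of -0.60 ± 0.06 (adjusted p = 1.21e-07). Both genes are transcribed from the same strand of mitochondrial DNA as parts of one long precursor. Of the others, CYTB was higher by 0.15 ± 0.05 (adjusted p = 0.0269) and ND4 lower by 0.15 ± 0.06 in size (adjusted p = 0.0476), both with overlapping groups. The call for CYTB was lost with the replicate number as a block (0.14) and without either airlift library of experiment A (0.15 each) or C (0.15 and 0.14), control replicate 1 of A (0.13) or of B (0.14). That for ND4 was lost, at -0.11 to -0.16, without any single 1 of 11 libraries: the fresh library and both airlift and control libraries of A, airlift replicate 1 and control replicate 2 of B, and both airlift libraries and control replicates 1 and 2 of C. The remaining 9 were not called, with differences between -0.35 (ND3) and 0.29 (COX3). Of these, ND3 was called without airlift replicate 2 of C (-0.49), ND5 without control replicate 3 of C (-0.17), COX2 without airlift replicate 2 of B (0.45), control replicate 2 of A (0.32) or control replicate 2 of B (0.35), and COX3 without the same libraries of B (0.46 and 0.36).

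Set against fresh cells, day 4 control cultures were lower for 12 of the 13, from -0.67 ± 0.07 for CYTB to -1.24 ± 0.07 for ND2 among the 7 genes with the most counts, with ND3 not called (-0.38 ± 0.23, called at -0.41 without airlift replicate 2 of B). The calls for ATP6 and ATP8 were lost without fresh cells of C (-0.42) and of A (-0.48), in that order. With scaling by totals alone 8 of the 13 were lower, and COX2 (-0.10), COX3 (-0.14), ATP6 (-0.07) and ATP8 (-0.05) were not called. ND2 thus lay farther below its fresh level at day 4 than at airlift (1627, 1896 and 2376 CPM in control cultures against 3942, 4702 and 4506 CPM in fresh cells), and COX1 nearer to it, at -0.92 ± 0.07.

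With NTHi, ND3 was the one mitochondrially encoded gene called, at 3.81, 4.35 and 5.06 CPM in NTHi cultures and 4.17, 5.48 and 7.19 CPM in control cultures, with overlapping groups and a log2 difference of -0.37 ± 0.11 (adjusted p = 0.0151). The call was lost without experiment C (-0.14) and in the fit on all libraries (-0.37). Per length, ND3 had the lowest median level of the 13 genes. A near-identical copy in the reference covers 99.1% of it, so its level and its call are uncertain. COX1 had 6534, 7220.3 and 7612 CPM in NTHi cultures and 6568, 7584 and 8765 CPM in control cultures, and CYTB 4190.2, 4979 and 5931 CPM in NTHi cultures and 4184, 4926 and 5507 CPM in control cultures, so the ranges overlapped. ND2 differed by -0.10 ± 0.11 (adjusted p = 0.496) and was called at -0.23 without NTHi replicate 1 of experiment A. The other members gave differences between -0.07 (COX1) and 0.17 (ND6). The experiments differed in sign: the median over the 13 genes was 0.16 in experiment A, with 11 above 0, -0.08 in B, with 10 below 0, and -0.15 in C, with 11 below 0.

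**Figure D3:**
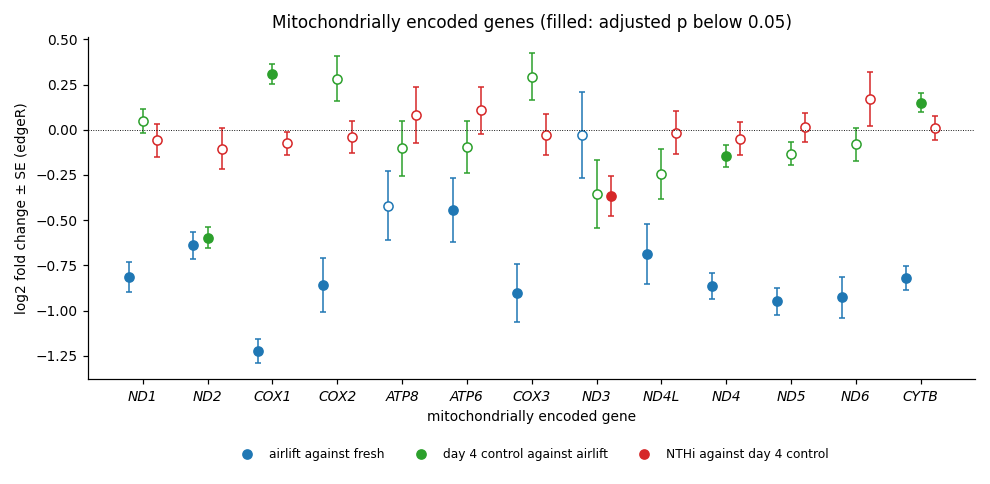
Log2 change with its standard error for each of the 13 mitochondrially encoded genes in 3 comparisons; filled points had an adjusted p below 0.05. COX1 (-1.22) lies lowest for airlift against fresh, COX1 (0.31) and ND2 (-0.60) part ways for day 4 control against airlift, and ND3 (-0.37) alone is filled for NTHi. Values of ND3 are uncertain, since its level is low and a near-identical copy exists.

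Levels of these genes differed widely even per length, although most are cut from the same precursors. Per kilobase of transcript, the median library had 4625 CPM of COX1, 4262 of CYTB, 2484 of ND1, 1987 of ND2, 1302 of ND5, 1203 of ND4 and 945 of ND6. The other 6 genes were low, with 92.5 CPM per kilobase for COX2, 60.9 for ATP6, 50.9 for COX3, 23.4 for ATP8, 19.9 for ND4L and 15.4 for ND3. In the reference transcripts of GENCODE M21, other genes hold copies of at least 99% identity that cover 99.1% of ND3, 99% of ND4L, 99.9% of COX3, 99.6% of ATP6 and 99.6% of COX2, 21.1% of ATP8, 63.6% of ND4 and 31.3% of COX1, and no such stretch of CYTB, ND1, ND2, ND5 or ND6. The copies, pseudogenes such as Gm28438, Gm10222, Gm28437 and Gm10925, are not rows of the count tables. Reads that fit a gene and its copy equally may be dropped or split in counting, and how this was handled is not given in the sources used here. The levels and changes of the copied genes are therefore uncertain, among them the NTHi call of ND3. The part of copies in the low values was not tested. For ND6, which lies on the other strand of mitochondrial DNA from the rest, reads of overlapping antisense transcripts cannot be told apart where strand is not used in counting.

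Nuclear subunits of complex I, which oxidises NADH, were mostly higher in culture. At airlift 25 of the 41 tested were higher than in fresh cells and 5 lower, against 37.9% and 36.7% of all genes, with a median log2 change of 0.34. The largest rises by the rule used here were those of Ndufs4, Ndufv3, Ndufa5 and Ndufab1. Ndufs4 is an accessory subunit of the arm that binds NADH, and its loss in mice causes a disease like Leigh syndrome. It had 39.9, 45.2 and 48.4 CPM at airlift and 23.9, 24.6 and 27.5 CPM in fresh cells, a difference of 0.83 ± 0.09 (adjusted p = 1.08e-07), without overlap. It held that level to day 4, at 42.98, 48.3 and 57.5 CPM in control cultures, and was at 46.1, 48.8 and 53.9 CPM with NTHi. Of the other complex I members with the YY1 core, named for the motif after their values were seen, Ndufs6 rose by 0.59 ± 0.08, Ndufa9 by 0.49 ± 0.06, Ndufc1 by 0.42 ± 0.10 and Ndufs7 by 0.24 ± 0.06.

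Ndufab1, the mitochondrial acyl carrier protein, which also serves fatty acid synthesis and iron-sulphur cluster assembly, had 41.4, 42.5 and 43.998 CPM at airlift and 27.1, 24.5 and 26.7 CPM in fresh cells, again without overlap (0.73 ± 0.06). Ndufa5, an accessory subunit, had 16.7, 17.9 and 21.1 CPM at airlift and 10.8, 11.1 and 11.3 CPM in fresh cells (0.75 ± 0.10). Ndufs1, the large subunit that holds iron-sulphur clusters, rose by 0.34 ± 0.06, with 50.9, 53.3 and 59.04 CPM at airlift and 41.4, 46.1 and 41.9 CPM in fresh cells. Ndufb11, a membrane arm subunit named here after its values were seen, was the lowest of the 5 that fell, at -0.71 ± 0.07. In the comparison of day 4 control with fresh cells, Ndufs5 (0.74 ± 0.08), Ndufb6 (0.74 ± 0.08), Ndufab1 (0.78 ± 0.06) and Ndufs4 (0.96 ± 0.09) were the complex I genes among the 5 highest.

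Ndufv3 took another course than most nuclear genes of complex I. This subunit of the flavoprotein part had 38.8, 37.7 and 39.6 CPM in fresh cells, 57.7, 63.2 and 72.2 CPM at airlift and 40.3, 48.4 and 49.1 CPM in day 4 control cultures, so that airlift stood above both other groups without overlap. Its log2 difference was 0.75 ± 0.08 for airlift against fresh cells (adjusted p = 6.88e-08) and -0.50 ± 0.06 for day 4 control against airlift (adjusted p = 8.91e-07). It was the one nuclear complex I gene lower in day 4 control cultures than at airlift, where 12 of 41 were higher. ND2 and ND4, the mitochondrially encoded complex I genes called there, were lower too. Among the 12, Ndufs8, which holds iron-sulphur clusters, had 51.3, 55.5 and 62.3 CPM in control cultures and 43.2, 44.5 and 47.9 CPM at airlift (0.32 ± 0.06), with no overlap between the groups. Ndufc2 (0.32 ± 0.05) and Ndufa1 (0.30 ± 0.07), both of the membrane arm, followed, with every control library of each above the highest airlift library.

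Complex II, which is also the succinate dehydrogenase of the tricarboxylic acid cycle, has 4 subunits, and all were higher in day 4 control cultures than in fresh cells, by 0.20 (Sdha) to 0.49 (Sdhd). Sdhb, the iron-sulphur subunit whose promoter is shown above, had 74.4, 76.1 and 82.6 CPM at airlift and 51.8, 52.3 and 54.01 CPM in fresh cells, without overlap, at 0.56 ± 0.07 (adjusted p = 3.24e-07). It was then lower in day 4 control cultures, at 58.3, 71.5 and 74.9 CPM (-0.16 ± 0.05 against airlift). That call was lost without experiment A (-0.17) or C (-0.12) and without the filter on low counts (-0.14). Sdhc, a membrane anchor, was higher in control cultures (0.25 ± 0.05), with 111, 124 and 135 CPM there and 90.4, 105 and 109.9 CPM at airlift. Sdhd, the other anchor, rose by 0.40 ± 0.06 at airlift and was not called after it, except at 0.11 without control replicate 1 of experiment C.

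Sdha, the flavoprotein that oxidises succinate, was the member that separated the day 4 groups. It had 194, 206 and 213 CPM in NTHi cultures and 227, 232 and 239.8 CPM in control cultures, with no overlap, at -0.19 ± 0.03 (adjusted p = 0.00038). The difference was -0.29, -0.14 and -0.16 within experiments A, B and C. Its NTHi range included the fresh range of 201, 204 and 204 CPM. Sdhc was lower with NTHi by the same size (-0.19 ± 0.05, adjusted p = 0.0129), at 94.97, 110.2 and 121 CPM in NTHi cultures, with overlapping groups and the call lost without experiment A (-0.14). Sdhb (-0.08 ± 0.05) and Sdhd (-0.07 ± 0.04) were not called, although Sdhb was at -0.11 without control replicate 1 of experiment C.

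In complex III, 5 of 9 nuclear genes were higher at airlift than in fresh cells and 1 lower (37.9% and 36.7% of all genes), with a median of 0.28. Uqcrq, a small subunit next to cytochrome b, had 95.2, 98.6 and 107 CPM at airlift and 58.2, 55.9 and 60.8 CPM in fresh cells, far apart, at 0.78 ± 0.08. Cyc1, cytochrome c1, which hands electrons to cytochrome c, had 86.6, 96.4 and 102 CPM at airlift and 75.03, 69.6 and 76.4 CPM in fresh cells (0.39 ± 0.07), and was not called between airlift and day 4 or with NTHi. Uqcr10, a small subunit beside cytochrome c1, showed the reverse pattern of calls: it was not called at airlift (-0.09 ± 0.07) and was lower with NTHi, with 48.8, 56.3 and 65.5 CPM in NTHi cultures and 64.3, 68.4 and 78.7 CPM in control cultures. These groups overlapped between 64.3 and 65.5 CPM only, and the log2 difference was -0.30 ± 0.05 (adjusted p = 0.000141).

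Complex IV holds the members with the largest falls at airlift and with NTHi and the largest rise from airlift to day 4 among those called. Several of its nuclear subunits exist as isoform sets, in which one gene is used broadly and another in particular tissues. Of 15 tested at airlift, 7 were higher than in fresh cells and 5 lower, close to the 37.9% and 36.7% of all genes, and the broad and the restricted isoforms are given side by side.

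Cox4i2, the isoform known from lung and for its induction by low oxygen, had 0.123, 0.205 and 0.409 CPM at airlift and 1.42, 1.38 and 1.59 CPM in fresh cells, with no overlap and a difference of -2.66 ± 0.30 (adjusted p = 2.19e-07). It was at 0.104, 0.153 and 0.370 CPM with NTHi and 0.125, 0.243 and 0.283 CPM in day 4 control cultures, too low for the test with NTHi. Its broad partner Cox4i1 had 239, 249 and 265 CPM at airlift and 316, 290.3 and 288 CPM in fresh cells (-0.23 ± 0.06, adjusted p = 0.00333), a direction that turned to 0.25 with scaling by library totals alone, whereas that of Cox4i2 held. Markers of other cell types moved too. All tested markers of alveolar type 2 cells (5), club cells (4), multiciliated cells (5), lymphocytes (4) and neutrophils (3) fell at airlift. Of the alveolar type 1 markers 4 fell and 1 rose, and of the basal markers 2 fell and 0 rose. The macrophage list had 4 that fell and 1 that rose, and the epithelial list 2 and 1. The 4 endothelial markers, of which 3 fell and 0 rose at airlift, summed to between 13.9 and 27.95 CPM at airlift and between 43.2 and 46.6 CPM in fresh cells, while the 5 mesenchymal markers, of which 4 rose, summed to between 27.2 and 76.5 CPM at airlift and between 9.85 and 12.8 CPM in fresh cells. None of these markers was at 0 throughout a group, and their part in the result was not tested.

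Cox6b2, known as the testis isoform of subunit 6b, dipped at airlift. It had 10.8, 9.10 and 9.19 CPM in fresh cells, 1.29, 1.57 and 2.31 CPM at airlift and 6.49, 7.52 and 10.7 CPM in day 4 control cultures, so that airlift lay below both other groups without overlap. The log2 difference was -2.54 ± 0.17 for airlift against fresh cells (adjusted p = 1.96e-10) and 2.24 ± 0.15 for day 4 control against airlift (adjusted p = 5.89e-10). Day 4 control and fresh cells differed by -0.30 ± 0.16 (adjusted p = 0.0914), called at -0.40 without control replicate 2 of experiment B. With NTHi it had 3.90, 6.11 and 7.17 CPM, lower than in control cultures by -0.42 ± 0.12 (adjusted p = 0.0105), with overlapping groups and the call lost without experiment B (-0.29). Markers of several epithelial cell types were also lower at airlift than before and after it. All 5 multiciliated markers fell at airlift and all 5 rose from airlift to day 4. Their sum was between 486 and 773 CPM in fresh cells, 105 and 209 CPM at airlift and 187 and 437 CPM in day 4 control cultures. With NTHi, 0 of the 5 were called, at sums between 173 and 402 CPM. Of the 5 markers of alveolar type 1 cells, 4 fell at airlift, 5 rose to day 4 and 4 were lower with NTHi. Their sums were between 1558 and 1869 CPM in fresh cells, 889 and 1305 CPM at airlift, 913 and 986 CPM with NTHi and 1945 and 2420.3 CPM in day 4 control cultures. Of the 4 basal cell markers, 2 fell at airlift, 4 rose to day 4 and 3 were lower with NTHi. Their sums were between 15.9 and 58.6 CPM in fresh cells, 3.44 and 22.5 CPM at airlift, 24.2 and 83.6 CPM with NTHi and 53.7 and 212 CPM in day 4 control cultures. All 5 alveolar type 2 markers fell and then rose, with 3 higher and 2 lower with NTHi. None of these markers was at 0 throughout a group, and their part in the course of Cox6b2 was not tested. Cox6b1, the broad isoform, did not share this course, with rises of 0.27 ± 0.08 at airlift and 0.23 ± 0.06 from airlift to day 4. Its first call was lost without experiment A (0.23) and its second without experiment B (0.15).

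Cox6a2, the isoform of heart and skeletal muscle, was lower at each step in the main fit. It had 26.6, 22.6 and 18.1 CPM in fresh cells, 11.5, 14.9 and 17.003 CPM at airlift and 3.05, 9.44 and 12.3 CPM in day 4 control cultures. The airlift libraries lay below all fresh ones (-0.60 ± 0.21, adjusted p = 0.0164). This call was lost without experiment A (-0.57) or B (-0.62), without the fresh library of B (-0.57) and with scaling by totals alone (-0.12). In control cultures it differed from airlift by -0.66 ± 0.17 (adjusted p = 0.0037), with overlap and the call lost without experiment B (-0.58). With NTHi it had 1.46, 3.83 and 7.17 CPM, lower than in control cultures by -1.28 ± 0.26 (adjusted p = 0.00101), the largest change of any member in that comparison. The ranges overlapped through the lowest control library, replicate 1 of experiment C, at 3.05 CPM. Markers of several cell types also fell with NTHi, among them 4 of 4 of club cells, 4 of 5 of alveolar type 1 cells and 3 of 4 of basal cells, at the sums given above. Of the 5 mesenchymal markers 2 were lower and 0 higher. Other lists had more markers higher than lower, with 3 and 2 of the alveolar type 2 markers. The epithelial list had 2 higher and 1 lower, and the neutrophil list 2 higher and 0 lower. Of the 6 macrophage markers 4 were lower and 1 higher, with sums between 176 and 693 CPM in NTHi cultures and between 617 and 1325 CPM in control cultures, and none was at 0 throughout a group. Their part in the result was not tested. The broad isoform Cox6a1, whose promoter is shown above, was called in none of the 4 comparisons in the main fit, and its levels spanned 111 to 161 CPM over all libraries. With NTHi it differed by -0.15 ± 0.06, called at -0.18 without replicate 1 of control or of NTHi in experiment C and at -0.23 without experiment C. With scaling by totals alone it was called at 0.59 at airlift and 0.58 in day 4 control cultures, both against fresh cells, and at -0.21 with NTHi. Day 4 control against fresh cells was also called without experiment C (0.18) or the filter on low counts (0.17).

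Cox7a2l, a Cox7a relative that takes part in joining complexes III and IV into supercomplexes, was the abundant complex IV member that fell most. It had 95.2, 97.6 and 101 CPM at airlift and 171, 167 and 157 CPM in fresh cells, without overlap, at -0.74 ± 0.05 (adjusted p = 1.11e-10). In day 4 control cultures it was higher again, at 103, 115 and 118 CPM (0.21 ± 0.04 against airlift), and lay below fresh cells (-0.53 ± 0.05; -0.06 and not called with scaling by totals alone). NTHi cultures, at 109, 115 and 135 CPM, did not differ beyond the spread (0.05 ± 0.05). Its broad relative Cox7a2 had 64.7, 74.7 and 81.03 CPM at airlift and 67.4, 62.4 and 62.05 CPM in fresh cells, with overlap (0.23 ± 0.09, adjusted p = 0.0252), a call lost without the fresh library of experiment B (0.18), that of experiment C (0.23) or airlift replicate 1 of experiment A (0.20). Cox5a, a further nuclear subunit, was the one complex IV gene among the 5 highest called members in day 4 control cultures against fresh cells (0.64 ± 0.07).

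**Figure D4:**
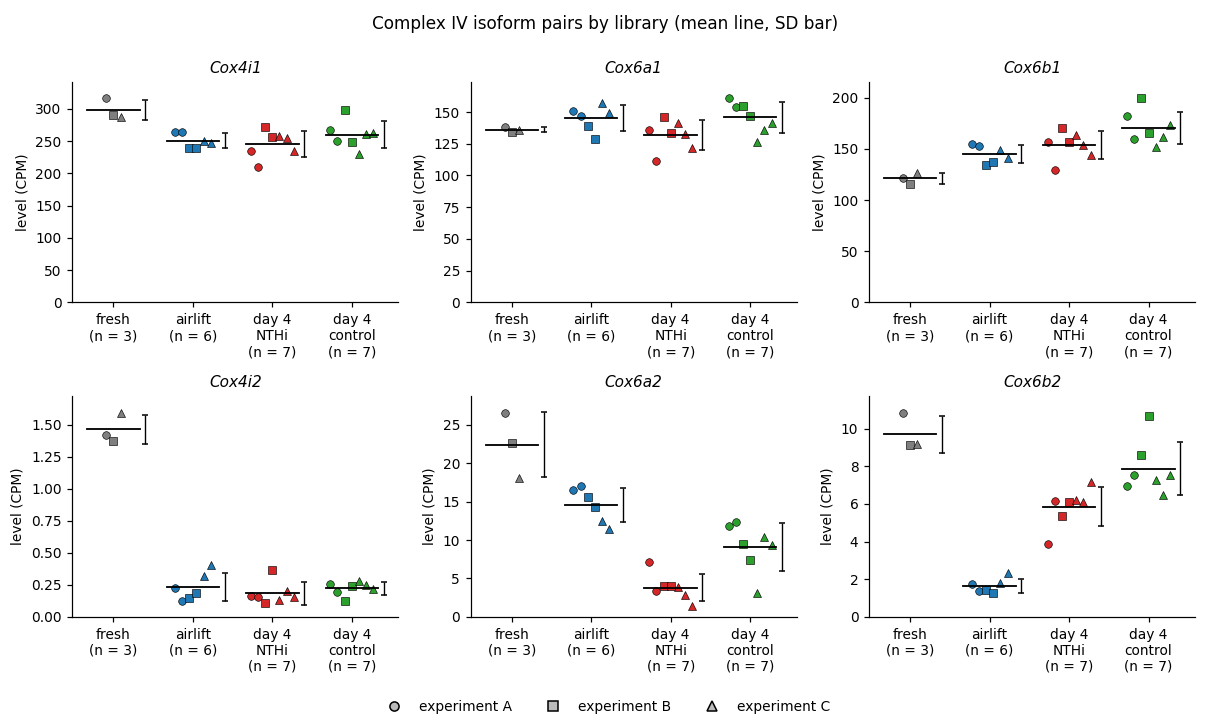
Level in CPM of the broad isoforms Cox4i1, Cox6a1 and Cox6b1 (upper row) and their restricted partners Cox4i2, Cox6a2 and Cox6b2 (lower row) in each library, with the mean as a line and the SD as a bar. Cox4i2 is high in the 3 fresh libraries alone, Cox6a2 steps down from fresh cells to NTHi cultures, and Cox6b2 dips at airlift, at 1.29 to 2.31 CPM.

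Ndufa4, first assigned to complex I and now counted as a subunit of complex IV, was lower with NTHi, at 85.6, 89.3 and 104 CPM in NTHi cultures and 101, 106 and 124 CPM in control cultures (-0.26 ± 0.05, adjusted p = 0.000536). The ranges overlapped between 101 and 104 CPM. Cox8a, the broad isoform of subunit 8, was also lower with NTHi (-0.19 ± 0.06, adjusted p = 0.0271), a call lost without control replicate 1 (-0.16) or 2 (-0.17) or NTHi replicate 2 (-0.14) of experiment A, or control replicate 1 or NTHi replicate 2 of B (-0.18 each). Cox7b rose at airlift (0.29 ± 0.07). Cox6c was called in no comparison in the main fit, but with NTHi it was called at -0.19 without control replicate 2 of experiment B. With scaling by totals alone Cox6c was called in 3 comparisons. The values were 0.36 at airlift and 0.46 in day 4 control cultures, both against fresh cells, and -0.19 with NTHi. The remaining isoforms were barely present. Cox7b2 and Cox8c, known from testis, had 0 counts in all 23 libraries, which allows up to 0.00346 CPM over their 865884139 counts (counting error only), and Cox8b, a muscle isoform, had 9 counts in all. Cox7a1, the heart and muscle isoform of Cox7a, had 74 counts and ranged from 0 to 0.353 CPM.

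In complex V, 10 of 18 nuclear genes were higher at airlift than in fresh cells and 1 lower (37.9% and 36.7% of all genes), with a median of 0.22. Atp5if1, which blocks the reverse reaction of the enzyme when the proton gradient fails, had 67.2, 79.04 and 81.1 CPM at airlift and 61.9, 58.1 and 70.6 CPM in fresh cells (0.29 ± 0.08, adjusted p = 0.003), with overlap. Atp5mc1, a gene for the rotating ring of c subunits, was not called at airlift (0.15 ± 0.08) and had 40.7, 51.7 and 55.4 CPM in day 4 control cultures, above airlift by 0.24 ± 0.06. With NTHi it had 31.8, 39.6 and 46.5 CPM, lower than in control cultures by -0.35 ± 0.07 (adjusted p = 0.0013). The NTHi and control ranges of Atp5mc1 overlapped between 40.7 and 46.5 CPM. Atp5if1 was not called with NTHi (-0.12 ± 0.05), but was without NTHi replicate 1 of experiment B (-0.15) or control replicate 1 of C (-0.16).

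**Figure D5:**
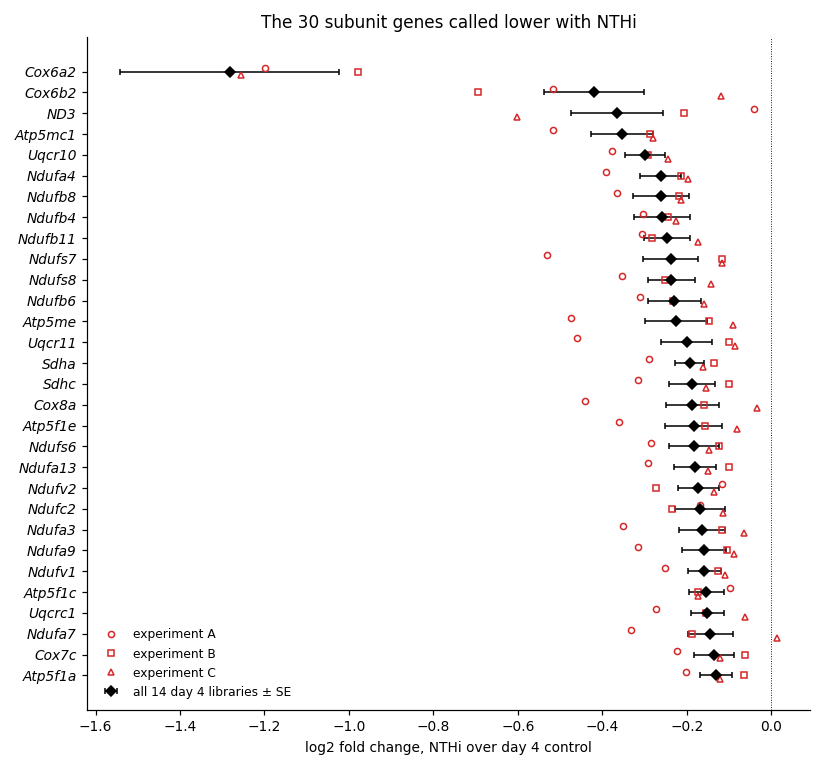
Log2 change with NTHi for the 30 members called lower, as fitted over the 14 day 4 libraries with its standard error (diamonds) and as the difference of mean log2 levels within experiments A, B and C (open symbols). Cox6a2 (-1.28) lies far below the rest, and 29 of the 30 members have the same sign in all 3 experiments.

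Within experiments, the nuclear median for NTHi against control was -0.23 in A, -0.10 in B and -0.08 in C, with 81, 72 and 69 of 86 members below 0. Of the 30 called members, 29 had the same sign in all 3 experiments, Ndufa7 being the exception. The share was 98.5% of all genes called lower. The calls were made over these same experiments, so this share largely follows from the call. A test of whether the NTHi effect differed between experiments called 0 of 16337 genes (0%) with edgeR, and 12 of 99 members had an unadjusted p under 0.05, while DESeq2 called 5 genes and 0 members, with 15 members under that p. The ratio of mitochondrially encoded to nuclear counts was between 2.996 and 3.35 with NTHi and between 2.35 and 2.45 in control cultures of experiment A, between 2.38 and 2.41 with NTHi and between 2.41 and 2.49 in controls of B, and between 2.78 and 2.93 with NTHi and between 2.89 and 3.07 in controls of C. It was thus above the controls in experiment A alone.

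Genes that build and express the respiratory chain were also mostly higher at airlift, whereas most of the known regulators tested were lower. Of 52 tested assembly factors, 42 were higher at airlift than in fresh cells and 4 lower, against 37.9% and 36.7% of all genes, with a median log2 change of 0.51 (50 higher and 0 lower with scaling by totals alone). Cox15, which makes the heme of complex IV, had 33.9, 35.5 and 39.6 CPM at airlift and 11.6, 12.98 and 14.7 CPM in fresh cells, far apart, at 1.47 ± 0.07. Coa5, another assembly factor of complex IV, differed by 1.11 ± 0.06, and Tmem186, an assembly factor of complex I, by 1.47 ± 0.09. Of the 78 proteins of the mitochondrial ribosome, which translates the transcripts of mitochondrial DNA, 66 were higher and 4 lower, with a median of 0.70, among them Mrpl11 (1.09 ± 0.07), Mrps2 (1.04 ± 0.07) and Mrpl10 (0.96 ± 0.07). Of 33 genes that replicate, transcribe or process mitochondrial DNA and RNA, or support its translation, 24 were higher and 6 lower, with a median of 0.57, led by Fastk (1.04 ± 0.07), Gfm1 (0.82 ± 0.06), Fastkd5 (1.52 ± 0.12) and Taco1 (1.58 ± 0.14). Tfam, which packs and transcribes mitochondrial DNA, and Polrmt, its RNA polymerase, named here after their values were seen, were higher by 0.41 ± 0.08 and 0.35 ± 0.10.

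Of 18 known regulators of mitochondrial biogenesis, 5 were higher at airlift than in fresh cells and 11 lower, with a median of -0.46 (8 higher and 7 lower, and a median of 0.03, with scaling by totals alone). Ppargc1a, which encodes the coactivator PGC-1alpha, had 3.06, 3.90 and 4.77 CPM at airlift and 33.6, 36.02 and 37.1 CPM in fresh cells (lowest, median and highest), a difference of -3.16 ± 0.14 (adjusted p = 6.7e-13) with no overlap. Sirt1, a deacetylase that acts on it, differed by -2.17 ± 0.14, the nuclear receptor Ppara by -2.03 ± 0.16 and Nfe2l2 by -0.98 ± 0.07, and all 4 were also lower with scaling by totals alone, at -2.68 for Ppargc1a. Of the factors whose motifs were searched, named here after their values were seen, Yy1 was lower by 0.60 ± 0.05 in size, Nrf1 higher by 0.17 ± 0.06 (adjusted p = 0.0122) and Gabpa not called (0.14 ± 0.11, adjusted p = 0.257).

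From airlift to day 4 and with NTHi fewer genes of these lists were called. In day 4 control cultures, where 26.9% of all genes were higher than at airlift and 27.7% lower, 10 assembly factors were higher than at airlift and 12 lower, 8 ribosomal proteins higher and 18 lower, 7 genes of mitochondrial DNA expression higher and 6 lower, and 2 regulators higher and 9 lower, the last led by Myc (-1.33 ± 0.09). With NTHi, where 20.1% of all genes were higher than in control cultures and 20.4% lower, 2 of 52 assembly factors were higher and 11 lower, 1 of 78 ribosomal proteins higher and 12 lower, and 2 of 33 genes of mitochondrial DNA expression higher and 6 lower. These shares of lower genes are near or below that of all genes. The genes with the smallest p were Coa3 (-0.37 ± 0.04), an assembly factor of complex IV, Mrps6 (-0.43 ± 0.07), Hsd17b10 (-0.45 ± 0.06), a part of the enzyme that cuts mitochondrial precursor RNA, and Lrpprc (-0.22 ± 0.03), which stabilises mitochondrial messengers, all lower, and the assembly factor Higd1a (0.48 ± 0.05), higher. Among the regulators, 8 were higher and 2 lower (4 and 4 with scaling by totals alone). Perm1, known as a partner of PGC-1alpha in muscle, had 9.34, 12.3 and 16.04 CPM with NTHi and 6.07, 7.65 and 8.72 CPM in control cultures, without overlap (0.78 ± 0.09), Pparg was lower (-0.92 ± 0.12) and Nrf1 higher (0.23 ± 0.04).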

How the data were processed

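RNA from 23 libraries of mouse lung epithelial cells was sequenced in bulk. The authors deposited raw counts per gene in 3 tables, 1 per experiment. Per the submitters' processing notes, STAR, DESeq2 and the mouse build GRCm39 were used, with no version given. The counting tool, its use of strand and its treatment of reads with several matches were not given in the sources used here. Of the 41098 lines in each file, 25 were fragments of broken lines and were dropped. Among counts below 20, 69.3% to 74.9% were even. Counts of mates of a pair would give such an excess, and then independent fragments are fewer than counts. Overlapping and antisense genes cannot be told apart without strand, and Ndufb4b, Ndufb4c, Ndufs6b and Ndufa11b, near-copies of other members, are uncertain.

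Comparisons used edgeR 4.0.16 in R 4.3.3 with filterByExpr (minimum count 10), TMM scaling and a two-sided quasi-likelihood F-test, with group and experiment as terms and Benjamini-Hochberg adjustment over all genes tested (threshold 0.05). NTHi was compared on the 14 day 4 libraries, and the other groups on the 16 untreated libraries. Levels are CPM on TMM-scaled totals of all libraries. Values within experiments are differences of mean log2(CPM + 0.5). DESeq2 1.42.0, other scalings, no filter, no experiment term, the replicate number as a block, all 23 libraries in a single fit, and libraries or experiments left out were alternatives, and the fit was tested on simulated data. Members and gene lists were chosen with earlier results of these data known. Genes named were all mitochondrially encoded members, Sdha to Sdhd, the complex IV isoforms with Ndufa4, Atp5if1, Cyc1, Ndufs1, the 5 highest and 5 lowest called members whose mean log2 CPM was at least 2, and up to 4 genes of smallest p per other list; exceptions are stated. Same-numbered replicates did not deviate together (correlations -0.354 to 0.074), which does not tell whether they share animals or wells.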

Additional observations from a re-analysis of the deposited data

Results flagged for a closer look

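In 13 of 147 groups of 6 or 7 libraries, 1 library of a named member lay far from the others of its group, as the gap to its nearest neighbour over the whole range of log2 levels. Chance alone gives about 1 in 20. Control replicate 1 of experiment C, 1 of the 2 libraries that stood apart, was lowest for 5 members: Sdhb at 58.3 CPM against 67.9 to 74.9 CPM in the other control libraries (gap 0.605), Cox6a2 at 3.05 against 7.43 to 12.3 CPM (0.626), Cox7a2l at 103 against 111 to 118 CPM (0.575), Atp5if1 at 74.2 against 86.7 to 97.1 CPM (0.577) and Ndufa5 at 13.4 against 15.9 to 17.9 CPM (0.586). Among NTHi libraries, replicate 1 of experiment A was highest for ATP6 at 75.6 CPM against 35.7 to 46.8 CPM (0.640) and for ND6 at 1037 CPM against 394 to 589 CPM (0.584). NTHi replicate 2 of experiment B was highest for COX3 at 56.8 CPM against 32.9 to 41.4 CPM (0.580) and for Cox4i2 at 0.370 CPM against 0.104 to 0.205 CPM (0.579).

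At airlift, replicate 2 of experiment B was highest for ND3 at 12.9 CPM against 5.17 to 7.14 CPM (0.652), and lowest for Cox8a at 135 CPM against 157 to 169 CPM (0.671) and for Ndufa1 at 16.9 CPM against 21.7 to 24.3 CPM (0.685). Replicate 1 of that experiment was lowest for Cox6c at 78.8 CPM against 99.03 to 109 CPM (0.709).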

How the results depend on the processing

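Counts of members called kept within 1.5 times under the alternatives tried, with these exceptions. With libraries scaled by totals alone, 64 members were lower with NTHi, 80 were higher and 13 lower at airlift against fresh cells, and 10 were lower in day 4 control cultures against fresh cells. Without experiment A, 15 were lower with NTHi and 15 higher in day 4 control cultures against airlift. Scaling by totals alone turned ATP6 (0.043), Cox4i1 (0.25), Cox6c (0.36) and Cox8a (0.44) at airlift against fresh cells, and Cox4i1 (0.28), Cox6c (0.46) and Cox8a (0.43) at day 4 against fresh cells, where the median of all genes moved by 0.49 as well. With single libraries left out, the counts higher and lower were 0 to 0 and 22 to 43 with NTHi, 47 to 52 and 17 to 24 at airlift, 18 to 28 and 5 to 8 for day 4 control against airlift, and 55 to 59 and 16 to 20 for day 4 control against fresh cells. With a replicate block the NTHi counts were 0 and 30, and those of day 4 control against airlift 19 and 7. Same-numbered libraries did not deviate together, but this cannot tell whether they share animals or wells. In the comparisons with fresh cells, which have 1 library per experiment, libraries were matched by the experiment term alone and a replicate block could not be fitted. DESeq2 gave 0 and 35, 48 and 25, 25 and 6, and 55 and 21, in the same order. Without both libraries of experiment C that stood apart, the NTHi counts were 0 and 39. Members under 1 CPM, such as Cox4i2 in culture, are limited by depth, since 3 counts of 1 library are 0.0768 to 0.0928 CPM.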

Other observations

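Genes that feed electrons into the chain moved both ways at airlift. Of 18 genes of the tricarboxylic acid cycle and pyruvate dehydrogenase, 4 were higher at airlift than in fresh cells and 8 lower (13 and 2 with scaling by totals alone), where 37.9% of all genes were higher and 36.7% lower. Ogdh, a part of the 2-oxoglutarate dehydrogenase, was lower (-0.87 ± 0.06) and Dlat, a part of pyruvate dehydrogenase, higher (0.92 ± 0.07), under both scalings. Ogdh was then higher in day 4 control cultures than at airlift (0.40 ± 0.05), in a list with 9 genes higher and 2 lower, where 26.9% of all genes were higher and 27.7% lower. With NTHi, 7 genes of the list were lower than in control cultures and 1 higher, where 20.4% of all genes were lower and 20.1% higher. Ogdh had 151, 165 and 171 CPM with NTHi and 199, 231 and 245 CPM in control cultures, without overlap (-0.50 ± 0.05), and Fh1, fumarate hydratase, differed by -0.49 ± 0.07, Pdha1 by -0.24 ± 0.03 and Suclg1 by -0.24 ± 0.04. Of 17 genes for ubiquinone, cytochrome c and the electron transfer flavoprotein, 2 were higher with NTHi and 7 lower, against the same shares of all genes. Etfb, which passes electrons from fatty acid oxidation to ubiquinone, had 44.2, 51.8 and 55.7 CPM with NTHi and 69.2, 81.4 and 86.04 CPM in control cultures, again without overlap (-0.64 ± 0.05).

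Genes known to switch respiration under low oxygen through the factor HIF peaked at airlift. Of 12, 11 were higher at airlift than in fresh cells and 0 lower, and 10 were lower in day 4 control cultures than at airlift and 0 higher, against the shares of all genes given above. Cox4i2, the member known for its induction by low oxygen, is not in this list and went the other way at airlift (-2.66). Ldha, lactate dehydrogenase, had 394, 403 and 411 CPM in the fresh libraries (lowest, median and highest), 2567, 2867 and 3039 CPM at airlift and 841, 987 and 1139 CPM in day 4 control cultures. Pdk1, which holds back pyruvate dehydrogenase, differed by -2.02 ± 0.08 between day 4 control and airlift, and Bnip3, a mitophagy receptor, by -2.70 ± 0.09. Ndufa4l2, a relative of Ndufa4 that is not a member, had 0 counts in the 3 fresh libraries and between 8.88 and 14.1 CPM at airlift. With NTHi, 7 of the 12 were higher than in control cultures and 1, Vegfa (-0.48 ± 0.06), lower. Higd1a, which is also in the list of assembly factors, had 61.9, 68.96 and 73.1 CPM with NTHi and 43.6, 47.8 and 57.8 CPM in control cultures, without overlap (0.48 ± 0.05). These lists were chosen with earlier results of the data known, and their link to the subunit genes was not tested.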
